A study of Mus musculus with 8 samples.

Results

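A set of 10 genes of the circadian clock was described in brown adipose tissue, the fat that burns fuel for heat. They were taken by name from the deposited mRNA table, which lists 22552 genes, and all 10 were present: Arntl and Clock (the positive arm), Per1, Per2 and Cry1 (the PER and CRY repressors), Nr1d1 and Nr1d2 (the REV-ERB repressors), Bhlhe40 and Bhlhe41 (the DEC repressors) and Dbp (an output factor). The mRNA data cover 3 wild-type samples (WT, genotype mmu-mir-193b +/+) and 3 samples without mir-193b and its neighbour mir-365-1 (Null, genotype mmu-mir-193b -/-). All mice were 2 months old and of mixed 129SV::FVB/N::C57BL/6 background, and neither group carried a treatment in the labels. Per the labels' protocols, MMTV-Cre females that carried a floxed mir-193b allele were used to obtain heterozygous offspring from which the Cre transgene was bred out. The tissue is whole fat depot rather than sorted cells. The sources used here do not give sex, housing temperature, feeding state or the time of day of collection.

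The clock is a feedback loop. The ARNTL (BMAL1) and CLOCK proteins pair and switch on genes that carry the E-box sequence CACGTG, among them the Per and Cry genes, whose proteins return to block the pair. The same pair drives Nr1d1 and Nr1d2, whose REV-ERB proteins repress Arntl through a RORE element that the activating ROR proteins also bind, and drives Bhlhe40 and Bhlhe41, whose DEC proteins compete for E-boxes. Dbp is an E-box target that passes the rhythm on to genes with a D-box. In peripheral tissues Arntl mRNA peaks at close to the opposite time of day from Nr1d1, Dbp and the Per genes. Tissue collected at another hour can therefore move the members of such a pair in opposite directions, at some hours by large folds. For this reason pairs such as Arntl and Dbp are read as a check on collection time. A small difference in a pair does not show that the hours were the same. In brown fat REV-ERB alpha, the Nr1d1 product, is known as a repressor of the thermogenic programme.

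Promoter windows, from 250 bases before to 50 bases after a transcription start, were taken from RefSeq (build GRCm38.p6) for 8 of the 10 members, in 12 windows of 300 bases. Per2 and Bhlhe40 had no window and were not searched. The E-box CACGTG was in 3 of these members, Per1, Bhlhe41 and Cry1, and the RORE was in 1, Arntl. These 4 windows are shown because they hold the elements through which the loop is known to run. Both strands were searched, and capitals mark the E-box, its variant CACGTT (read as AACGTG on the other strand) and the RORE.
Per1 (chr11:69098699-69098998, plus strand): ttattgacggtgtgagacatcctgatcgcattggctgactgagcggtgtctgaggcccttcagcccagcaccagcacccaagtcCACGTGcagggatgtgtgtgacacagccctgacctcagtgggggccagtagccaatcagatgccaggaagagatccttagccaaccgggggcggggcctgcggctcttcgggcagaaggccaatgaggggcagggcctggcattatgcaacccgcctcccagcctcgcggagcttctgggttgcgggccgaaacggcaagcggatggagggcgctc
Bhlhe41 (chr6:145865371-145865670, minus strand): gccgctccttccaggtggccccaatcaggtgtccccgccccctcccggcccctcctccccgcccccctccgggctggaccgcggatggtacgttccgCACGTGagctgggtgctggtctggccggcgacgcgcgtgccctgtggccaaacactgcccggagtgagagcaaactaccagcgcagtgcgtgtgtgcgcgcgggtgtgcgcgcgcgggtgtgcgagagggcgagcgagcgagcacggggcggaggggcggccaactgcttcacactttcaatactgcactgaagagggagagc
Cry1 (chr10:85185005-85185304, minus strand): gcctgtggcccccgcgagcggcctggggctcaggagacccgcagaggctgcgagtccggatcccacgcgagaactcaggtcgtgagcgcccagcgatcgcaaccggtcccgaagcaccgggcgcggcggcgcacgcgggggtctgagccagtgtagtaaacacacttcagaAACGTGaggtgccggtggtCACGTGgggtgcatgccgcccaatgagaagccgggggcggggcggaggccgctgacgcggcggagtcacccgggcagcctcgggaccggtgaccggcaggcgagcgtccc
Arntl (chr7:113207261-113207560, plus strand): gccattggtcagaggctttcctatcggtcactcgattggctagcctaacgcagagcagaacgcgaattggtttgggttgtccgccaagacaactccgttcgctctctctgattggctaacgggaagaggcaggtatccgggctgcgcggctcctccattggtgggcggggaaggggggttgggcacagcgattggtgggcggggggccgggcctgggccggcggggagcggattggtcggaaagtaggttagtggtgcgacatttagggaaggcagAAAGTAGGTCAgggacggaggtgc
The E-box began 166 bases before the start in Per1, 153 bases before it in Bhlhe41 and 60 bases before it in Cry1, where the CACGTT variant lay at 79 bases before the start. The Arntl element began 26 bases after the start. Over all 32851 windows of this length in the RefSeq table, 7.15% held CACGTG, 4.68% held CACGTT and 0.384% held the RORE. These shares are by window, while the members were counted by gene and some had several windows. The other Per1 window held no CACGTG, and the other Arntl window no RORE. A CACGTT was also found in the Nr1d1 window, 28 bases before the start. The D-box, searched as TTANGTAA, and the cAMP response element TGACGTCA were in none of the members' windows, against 2.32% and 1.79% of all windows. With 12 windows, finding none is near those shares. A match describes letters in a window and does not show binding.

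The deposited table gives the mRNA as FPKM, fragments scaled by transcript length and sequencing depth, in 1 column per genotype. The 3 samples of a genotype had thus been combined by the authors, so the values have no SD, no replicate check and no test, and the depth of the libraries is unknown. Differences are given as log2((Null + 1)/(WT + 1)) of FPKM, here the log2 ratio, which understates differences of low genes. They were read among the 11597 genes whose mean was 1 FPKM or above, called measured, and all 10 clock genes were among them. In the microRNA libraries, 1 per genotype, miR-193b-3p stood at 3705 RPM (WT) against 11.5 RPM (Null), and the mRNA table lists Mir193b at 0 in both columns. In the same microRNA libraries miR-365-3p was still present in Null, at 1442 RPM (WT) against 798 RPM (Null), or 55.3% of WT. For miR-365-1-5p the values were 11.8 RPM (WT) against 0.0821 RPM (Null). The brown fat markers Ucp1, at 3016 and 2487 FPKM, and Cidea, at 2615 and 2717 FPKM in WT and Null, were abundant in both. Of the 8 brown fat markers 2 were higher in Null past 1.5-fold, Cox7a1 (log2 ratio 1.02) and Adipoq (0.71). Dio2 (-0.97) was the 1 marker lower by that much, and the list median was 0.00. Over all measured genes 7.87% were higher and 6.75% lower by 1.5-fold or more.

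The repressor genes Bhlhe40, Bhlhe41 and Per1 had lower values in Null, by 1.5-fold or more, and no clock gene was higher by that much. The other 7, Arntl, Clock, Per2, Cry1, Nr1d1, Nr1d2 and Dbp, lay within 1.5-fold of WT. Of the 10 members 3 were thus lower, where 6.75% of all measured genes were lower and 7.87% higher by the same rule. At 2-fold or more 1 member was lower, Bhlhe40, where 1.65% of all measured genes were lower and 2.17% higher. The median log2 ratio of the 10 members was -0.24, against 0.01 over all measured genes, with 7 members below 0 and 3 above. With the columns scaled to the same sum, the median of all genes moved to -0.18, the shares of measured genes lower and higher to 14.0% and 4.04%, and the members' median lay -0.27 from that of all genes.

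**Figure D1:**
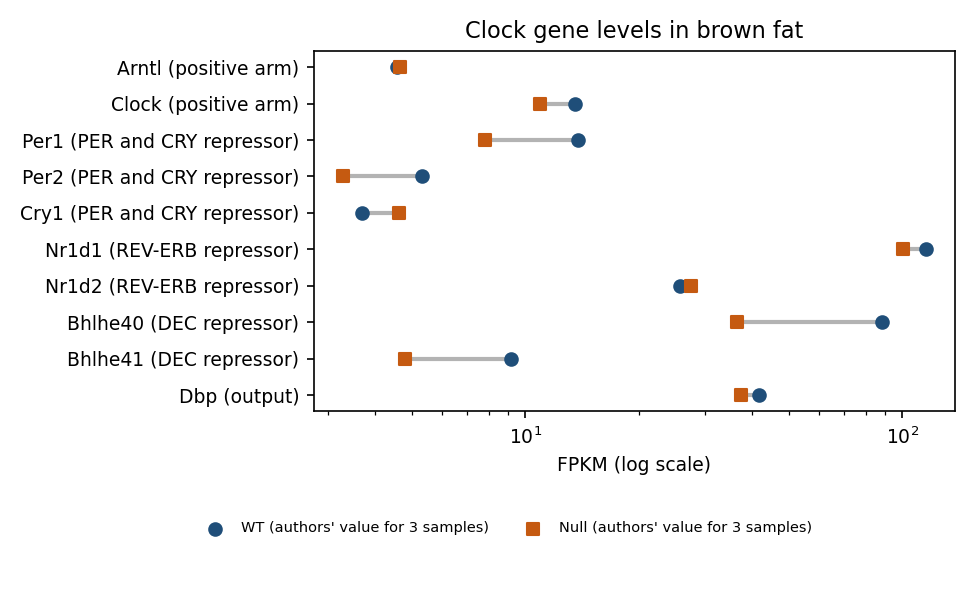
FPKM on a log axis for each clock gene, with 1 value per genotype as the authors combined 3 samples each (WT circles, Null squares) and a grey line joining the pair. The widest gap is that of Bhlhe40, from 88.5 to 36.3 FPKM, while the 2 points of Arntl lie almost on each other.

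Since FPKM is scaled by length, levels can be set beside each other across genes. Nr1d1 had the highest level of the 10 in both genotypes, at 115 FPKM in WT against 100 in Null, above 94.5% and 92.9% of measured genes. Bhlhe40 came next in WT, but in Null Dbp stood just above it. Arntl, Cry1 and Per2 held the last 3 places in both genotypes, at 3.28 to 5.31 FPKM. Without a spread between samples it cannot be said which neighbours in this order differ. In bulk tissue, fewer cells of a type and less RNA per cell cannot be told apart.

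In the positive arm, Arntl was at 4.56 FPKM in WT against 4.64 in Null. Its log2 ratio was 0.02, and -0.16 with the columns scaled to the same sum. Clock, whose protein is the partner of ARNTL, was at 13.6 FPKM in WT against 10.9 in Null, a log2 ratio of -0.29. That ratio was -0.49 with equal sums and -0.16 when centred on genes of like genomic span. Clock thus stood at 80.5% of its WT level, and Arntl at 102%. Neither gene was past 1.5-fold.

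The PER and CRY repressors did not share a direction. Per1, which besides its rhythm responds acutely to glucocorticoids and cAMP, was at 13.8 FPKM in WT against 7.82 in Null, a log2 ratio of -0.75. Of the measured genes 3.61% had a lower ratio. Per2, the other main period gene, was at 5.31 FPKM in WT against 3.28 in Null. Its log2 ratio of -0.56 lay just inside the 1.5-fold bound of 0.58, and it passed that bound at -0.68 with a pseudocount of 0.1 FPKM. Cry1, the partner of the PER proteins, differed the other way, at 3.68 FPKM in WT against 4.63 in Null, a log2 ratio of 0.27. Cry1 peaks later than the Per genes in most tissues and has both E-box and RORE control. Of the members with CACGTG in the windows shown, Per1 and Bhlhe41 were lower in Null, and Cry1 was at 126% of WT.

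The REV-ERB repressors lay within 1.5-fold of WT. Nr1d1 was at 87.1% of its WT level, a log2 ratio of -0.20, which became -0.34 with quantile normalization and -0.41 with the columns scaled to the same sum. Nr1d2, its close relative that also silences RORE genes, was at 25.7 FPKM in WT against 27.6 in Null, a log2 ratio of 0.10 that became -0.11 with the columns scaled to the same sum. Summed over both genes, the level was 141 FPKM in WT against 128 in Null. In the RefSeq annotation Nr1d1 overlaps Thra, a thyroid hormone receptor gene that is known to lie on the other strand and was at 47.5 FPKM in WT against 35.8 in Null. The sources used here do not say whether strand was used in counting, so part of the signal of either gene may belong to the other.

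The DEC repressors showed the widest differences of the 10 members. Bhlhe40 (DEC1), which is also induced by hypoxia, insulin and cAMP in many cells, was at 88.5 FPKM in WT against 36.3 in Null. Its log2 ratio was -1.26, that is 41.1% of WT, and 0.880% of measured genes had a lower ratio. In level it went from above 92.7% of measured genes in WT to above 81.5% in Null. Bhlhe41 (DEC2) was at 9.17 FPKM in WT against 4.81 in Null, a log2 ratio of -0.81, or 52.4% of WT. Both genes were lower, and their summed level was 97.6 FPKM in WT against 41.1 in Null. Bhlhe40 was 9.65 times as abundant as Bhlhe41 in WT and 7.56 times in Null.

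The output factor Dbp, a D-box activator with a strong daily rhythm, was at 41.6 FPKM in WT against 37.2 in Null. Its log2 ratio was -0.16, or 89.5% of WT, and became -0.37 with the columns scaled to the same sum and -0.31 when centred on genes of like genomic span. Dbp overlaps the neighbouring gene Sphk2 in the RefSeq annotation, a gene at 9.62 FPKM in WT against 7.66 in Null, so that its level carries the same reservation as that of Nr1d1.

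**Figure D2:**
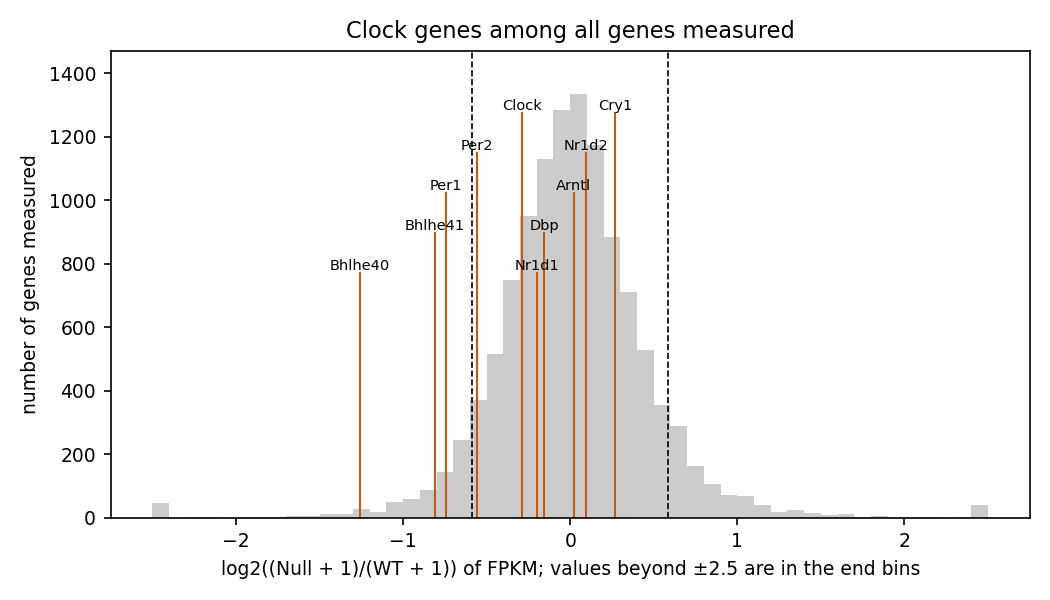
Histogram of the log2 ratio of all 11597 measured genes, with the 10 clock genes as labelled lines of arbitrary height and dashed lines at 1.5-fold. Bhlhe40 at -1.26, Bhlhe41 at -0.81 and Per1 at -0.75 lie beyond the lower dashed line, and the other 7 lie between the lines.

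Set against each other, the positive arm had a mean log2 ratio of -0.13 and the 7 repressors a mean of -0.46, a difference of 0.32. The repressor mean was the result of unlike parts: -1.03 for the DEC pair, -0.35 for the PER and CRY genes and -0.05 for the REV-ERB pair. By count, 3 of 7 repressors and 0 of 2 positive-arm genes were lower by 1.5-fold or more, beside 6.75% of all measured genes. With 2 genes in the positive arm, these counts do not set the arms apart.

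The phase-linked pairs show whether genes of opposite phase moved apart. Dbp was 9.12 times as abundant as Arntl in WT and 8.02 times in Null. On the log2 scale with the pseudocount, Arntl over Dbp was -2.94 in WT and -2.76 in Null, a difference of 0.18. Nr1d1 was 25.3 times as abundant as Arntl in WT and 21.6 times in Null, a difference of 0.22 for Arntl over Nr1d1. Nr1d2 was 5.64 and 5.94 times as abundant as Arntl, a difference of -0.07 for Arntl over Nr1d2, which became 0.02 when ratios were centred on genes of like genomic span. The differences of the first 2 pairs were larger, at 0.47 and 0.44, when centred on genes of like genomic span.

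The other opposite-phase pairs differed more. Arntl was at 0.858 times the level of Per2 in WT and 1.41 times in Null, so that the order of the 2 genes was reversed. The log2 difference was 0.58, and 0.70 with a pseudocount of 0.1 FPKM. Cry1 over Dbp was -3.19 in WT and -2.76 in Null, a difference of 0.42, or 0.68 when centred on genomic span. In 4 of the 5 opposite-phase pairs the log2 difference was above 0. They share genes, with Arntl in 4 of them, and so are not separate observations.

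Pairs of like phase compare genes that rise and fall at about the same hours. Nr1d1 over Dbp was 1.45 in WT and 1.41 in Null, a difference of -0.04, which became 0.03 when centred on genes of like genomic span. Per1 over Per2 differed by -0.19, or -0.32 when centred in that way, and Nr1d1 over Nr1d2 by -0.29. Bhlhe40 over Bhlhe41 went from 3.14 in WT to 2.68 in Null, a difference of -0.45, the widest of the 4 pairs. With a pseudocount of 0.1 FPKM the Bhlhe40 over Bhlhe41 difference was -0.36. The sign of a pair's difference depends on which gene is put first, so the like-phase and opposite-phase values are not set against each other. The part of collection time in these values was not tested.

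**Figure D3:**
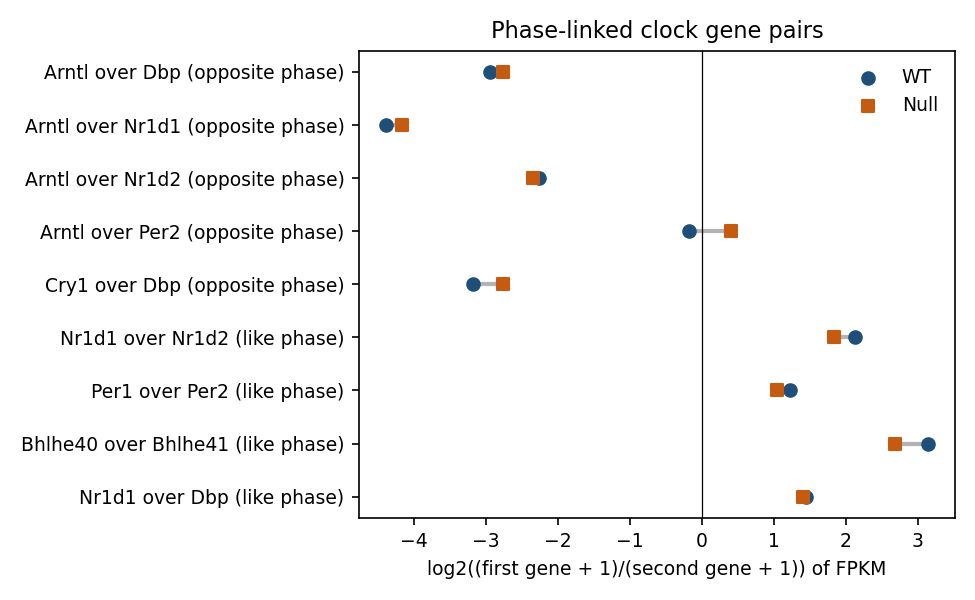
Log2 of the level of the first gene over that of the second (FPKM with a pseudocount of 1) for 5 opposite-phase and 4 like-phase pairs, WT as circles and Null as squares. Arntl over Per2 is the 1 pair that crosses 0, from -0.18 in WT to 0.40 in Null.

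The wider clock machinery, a list of 28 genes that are not among the 10, was read in the same way. Of its 25 measured genes 1 was lower by 1.5-fold or more and 0 were higher, a count near the 6.75% lower over all measured genes, and the median log2 ratio was -0.17. The gene past the bound was Rora, which encodes an activator of RORE genes, at 3.28 FPKM in WT against 1.50 in Null (-0.77). Per3, a further period gene, was at 13.2 and 9.75 FPKM (-0.40), and Cry2 at 16.7 and 12.2 FPKM (-0.42). Gm129, an E-box repressor also called Ciart or Chrono, was at 4.01 and 2.37 FPKM (-0.57), close to Per2 in its ratio. The D-box activators Tef, at 54.6 and 38.5 FPKM (-0.49), and Hlf, at 8.47 and 6.88 FPKM (-0.27), are relatives of Dbp, and Nfil3, which represses D-boxes, was at 8.95 and 7.53 FPKM (-0.22). Npas2, which can stand in for Clock, was near 0.44 FPKM in both and under the filter. With the columns scaled to the same sum, 6 genes of this list were lower by 1.5-fold or more, where that scaling placed 14.0% of all measured genes.

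Per1 is also a glucocorticoid-induced gene, and 10 further genes induced by glucocorticoids were read beside it. Of these, 3 were lower past 1.5-fold and 0 higher, where 6.75% of all measured genes were lower and 7.87% higher. Their median log2 ratio was -0.18, with 7 below 0 and 3 above. Zbtb16 was at 11.4 FPKM in WT against 3.22 in Null (-1.56), Sgk1, a kinase, at 31.1 and 19.2 FPKM (-0.66), and Klf9 at 36.5 and 23.8 FPKM (-0.60). The other 7 lay within 1.5-fold of WT, and among them Mt1 was higher in Null, at 401 and 595 FPKM (0.57). A link of these values to that of Per1 was not tested.

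Several technical and cellular measures moved with the genotype. The log2 ratio of all measured genes went down with the genomic span of the gene, which RefSeq (GRCm38.p6) gave for 99.3% of them, from a median of 0.31 in the shortest of 10 bins to -0.14 in the longest. Bhlhe40 and Dbp lay in a bin with a median of 0.15, Bhlhe41 and Nr1d1 in one of 0.08 and Per1 in one of 0.03. The 3 genes past the bound therefore lay below the genes of their own span by more than their ratio alone shows, at -1.42 for Bhlhe40, -0.89 for Bhlhe41 and -0.78 for Per1. Arntl, in the bin of the longest genes, lay 0.16 above its bin. Genomic span is not transcript length, which was not used here.

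**Figure D4:**
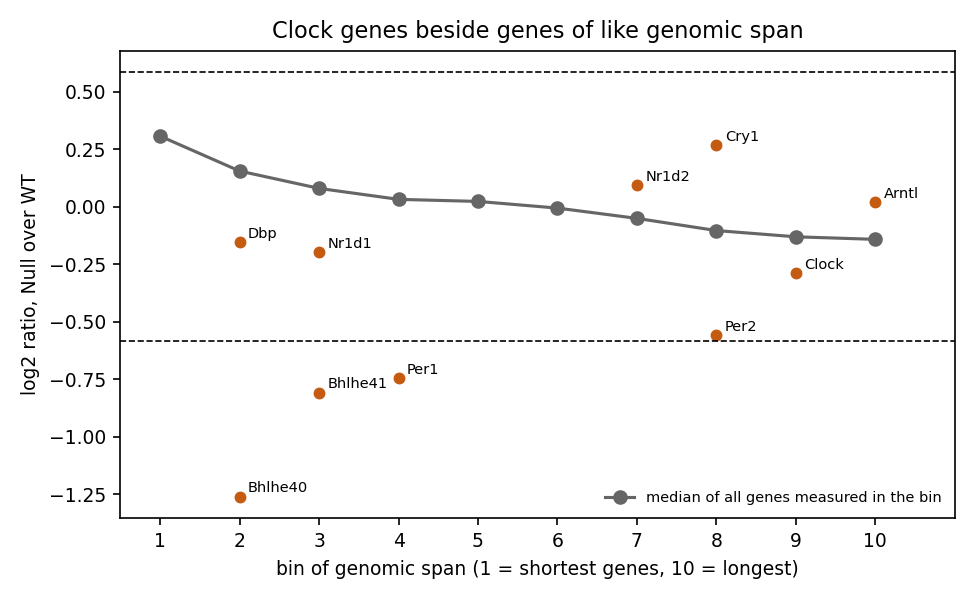
Log2 ratio of each clock gene (points) against its bin of genomic span, from 1 (shortest) to 10 (longest), with the median of all measured genes per bin as the grey line and 1.5-fold as dashed lines. The grey line goes from 0.31 to -0.14, and Bhlhe40 lies at -1.42 from it.

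Of the markers of skeletal muscle, which also runs a clock, 6 of 9 were lower in Null past 1.5-fold, beside 6.75% of all measured genes. Their median log2 ratio was -1.38, with none at 0 FPKM. Their summed level was 2393 FPKM in WT against 1665 in Null, with Myh2 (-1.86), Myh1 (-1.79) and Myh7 (-1.70) lowest. Ckm (-0.47), Tnnt3 (-0.51) and Mylpf (0.09) lay within 1.5-fold of WT. Of other cell types, 3 of 3 red cell, 2 of 4 macrophage and 2 of 5 fibroblast markers were higher by 1.5-fold or more, beside 7.87% of all measured genes. Of the endothelial markers 0 of 4 differed by that much. Summed levels in WT and Null were 113 and 349 FPKM for red cell, 14.9 and 22.6 FPKM for macrophage, 227 and 372 FPKM for fibroblast and 162 and 162 FPKM for endothelial markers. The part of these cells in the clock gene values was not tested.

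Across 7 other ways of processing the values, Bhlhe40 stayed at or below -1.26, Bhlhe41 lay between -0.99 and -0.76 and Per1 between -0.94 and -0.70, so that all 3 were past 1.5-fold in each. Per2 passed the bound in 2 of the 7 settings in which it was measured. Clock, Nr1d1 and Dbp were below 0 in every setting run and never past the bound. Cry1 was above 0 in each setting that kept it, between 0.09 and 0.37.

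**Figure D5:**
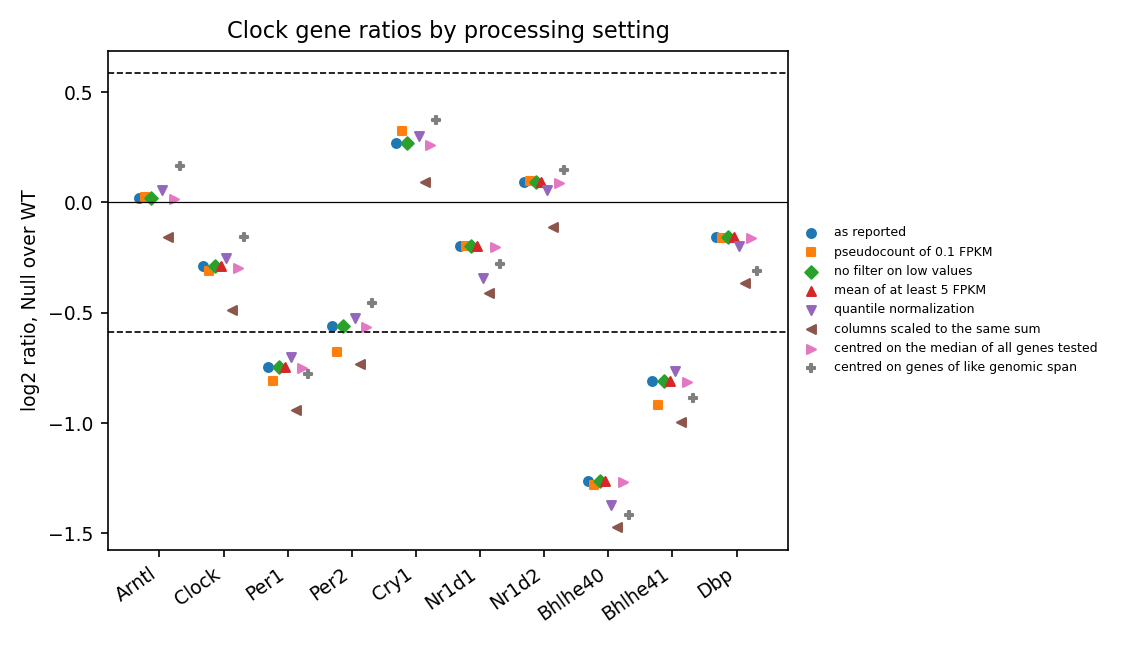
Log2 ratio of each clock gene under 8 settings, with 0 as a solid line and 1.5-fold as dashed lines. Bhlhe40, Bhlhe41 and Per1 stay below the lower dashed line in all 8, and Arntl and Nr1d2 each have 1 setting below 0, that of columns scaled to the same sum.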

How the data were processed

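Poly(A) RNA of 3 WT and 3 Null samples was sequenced and deposited by the authors as FPKM, in a single column for each genotype, per the file headers. The sources used here do not say how 3 samples became 1 value. The submitters' processing notes name the build mm9 and the tools TopHat, BWA, CASAVA, DESeq and edgeR. The microRNA file, used only for miR-193b and miR-365, holds values headed RPM and treated as a deposited signal. The authors' deposited p-values and ratios in it were not used. Members and gene lists were chosen with earlier results of these data known.

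Log2 ratios used a pseudocount of 1 FPKM and a minimum mean of 1 FPKM, and 1.5-fold was the bound for a call, with pandas 2.3.3 and NumPy 2.4.6 in Python 3.11.15. A test was impossible on 1 value per genotype. The ratio step was run on simulated data with known differences set only among abundant genes. That run checks the arithmetic and says nothing about the precision of the clock gene values. Named genes were all 10 members, genes of the other lists past 1.5-fold, 8 fixed partners and up to 3 further genes per list by size of ratio. Some genes named by this rule are not reported here. With 1 value per genotype, no genes of like pattern could be sought. Alternatives were a pseudocount of 0.1 FPKM, no filter, a minimum of 5 FPKM, quantile normalization, scaling to the same sum, centring on the median, and, chosen after seeing the data, centring within 10 bins of genomic span.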

Additional observations from a re-analysis of the deposited data

How the results depend on the processing

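No paired analysis was possible because the table has 1 value per genotype, and for the same reason no sample could be left out in turn. Centring on transcript length was not run, since no transcript lengths were used here, and genomic span took its place. The count of clock genes lower by 1.5-fold or more was 3 or 4 in all 7 alternatives, and the count higher was 0. It was 4 with the 0.1 FPKM pseudocount and with equal sums, which placed 9.15% and 14.0% of all genes lower, against 6.75% as reported. The members' median log2 ratio was -0.26 with a pseudocount of 0.1 FPKM, -0.29 with a mean of at least 5 FPKM, -0.30 with quantile normalization, -0.45 with scaling to the same sum, -0.25 centred on the median of all genes and -0.29 centred on genomic span. The positive arm minus the repressors was, in the same order without median centring, 0.35, 0.29, 0.38, 0.33 and 0.47, where the 5 FPKM filter leaves out Arntl, Per2 and Cry1. Arntl over Dbp was 0.18 with the pseudocount of 0.1 FPKM, 0.25 with quantile normalization, 0.21 with equal sums and 0.47 with genomic span, and had no value under the 5 FPKM filter. The median of the other clock machinery was -0.18 with the pseudocount of 0.1 FPKM, -0.15 with no filter, -0.20 with at least 5 FPKM, -0.18 with quantile normalization, -0.38 with equal sums, -0.18 with median centring and -0.12 with genomic span. Its count lower was 2, 0, 6 and 2 with the 0.1 FPKM pseudocount, the 5 FPKM filter, equal sums and genomic span. The 5 FPKM filter leaves out Rora, and centring on genomic span put Gm129 (-0.73) past the bound beside Rora (-0.63). Equal sums moved the median of all genes to -0.18. The genes that passed with equal sums and with the 0.1 FPKM pseudocount are not named here. The depth of the libraries is unknown, so the precision of low genes such as Arntl and Cry1 cannot be given.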

Other observations

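Some further lists linked to the clock were read, with no test. Of 8 measured cAMP-induced genes, which respond to the adrenergic signal that drives brown fat, 2 were higher in Null by 1.5-fold or more and 2 lower. Their median log2 ratio was -0.06. Over all measured genes 7.87% were higher and 6.75% lower by that rule. Nr4a1 was at 9.36 FPKM in WT against 17.5 in Null (0.83) and Fos at 18.8 and 32.7 FPKM (0.77), while the kinase gene Sik1 was at 9.48 and 5.35 FPKM (-0.72) and Dio2, which activates thyroid hormone, at 18.6 and 9.05 FPKM (-0.97). Per1 and Bhlhe40 are also induced by cAMP and were lower, and a link of any of these values to that signal was not tested. Among 6 measured temperature-sensitive genes Cirbp, a cold-inducible RNA-binding protein, was past 1.5-fold, at 20.6 FPKM in WT against 34.5 in Null (0.72). The heat shock genes Hsph1 (-0.30) and Hspa8 (-0.24) were the next widest. Of 6 rhythmic output genes 0 were past 1.5-fold, with a median of -0.02. Tspan4 was at 40.1 and 60.2 FPKM (0.57), the ubiquitin protease gene Usp2 at 8.54 and 5.97 FPKM (-0.45) and Por at 133 and 104 FPKM (-0.35).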
